A study of Homo sapiens with 8 samples.

Results

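The total change produced by both drugs, 1035 followed by doxorubicin, was measured against cells given only the solvent DMSO. None of the deposited tables holds this comparison. It was made by joining, gene by gene through the Ensembl identifier, the counts of the 2 combination libraries with those of the 2 DMSO libraries, so it rests on 4 of the 8 libraries. The cells were of the established human line SupB15, which was derived from a precursor B-cell acute lymphoblastic leukemia and carries the Philadelphia chromosome, and grew in IMDM with 20% serum. DMSO was given for 46 h. The combination was 1035 at 2 µM for 36 h and then doxorubicin at 0.1 µM for 10 h. The other 4 libraries, used beside these, come from cells given 1035 at 2 µM for 46 h or doxorubicin at 0.1 µM for 10 h. There is no DMSO group of 10 h, and the sources used here do not say whether 1035 stayed in the medium while doxorubicin was present. The series title calls the agents an HDAC (histone deacetylase) inhibitor and doxorubicin. Total RNA depleted of ribosomal RNA was sequenced, and the libraries held 16217438 and 15570301 counted reads in DMSO and 12934237 and 11760542 in the combination. The design text calls the 2 samples of a treatment independent, without saying in what way, so the p-values measure the spread between these samples only, and all samples are of a single cell line.

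Histone deacetylases take acetyl groups off histones and other proteins, and blocking them opens chromatin at many silent genes while the transcription of many active genes declines. The anthracycline doxorubicin holds topoisomerase II on DNA and so leaves double-strand breaks. Breaks activate the kinases ATM and ATR, which stabilise the transcription factor p53, and ATM also activates the transcription factor NF-kB. Precursor B cells are at the stage at which a surrogate light chain forms part of the pre-B cell receptor and at which the antibody genes are being rearranged, and in leukemia with the Philadelphia chromosome the fused kinase BCR-ABL1 drives growth.

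The combination left nearly equal numbers of genes higher and lower, but the rises were larger. Of 16320 genes tested, 3999 rose (24.5%) and 4023 fell (24.7%) at a false discovery rate of 5% in the quasi-likelihood test of edgeR, so 49.2% of genes changed. At least 2-fold rises numbered 1096 (6.72%) and at least 2-fold falls 388 (2.38%), and at 8-fold or more there were 71 rises and 4 falls. The median log2 fold change was 0.60 among genes that rose and -0.42 among genes that fell, against 0.015 over all genes. The share of genes that fell grew with the level, whereas falls of at least 2-fold were more frequent at low levels. Genes that fell held 46.6% of the reads in DMSO and 36.8% after both drugs, and genes that rose went from 17.4% to 25.5%. In the decile of genes with the highest mean level 48.0% fell and 18.9% rose, and in the fourth decile from the bottom 17.1% fell and 34.1% rose. In the lowest decile only 11.2% rose and 3.1% fell, where the median standard error of a log2 fold change was 0.55, against 0.059 in the highest decile, so small changes of rare transcripts were not detectable at this depth. Both combination libraries lay above both DMSO libraries for 6257 genes (38.3%) and below them for 6025 (36.9%). In bulk RNA, fewer cells of a kind and less RNA per cell cannot be told apart, and since levels are relative to all reads, a change in total RNA per cell would not be seen.

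**Figure D1:**
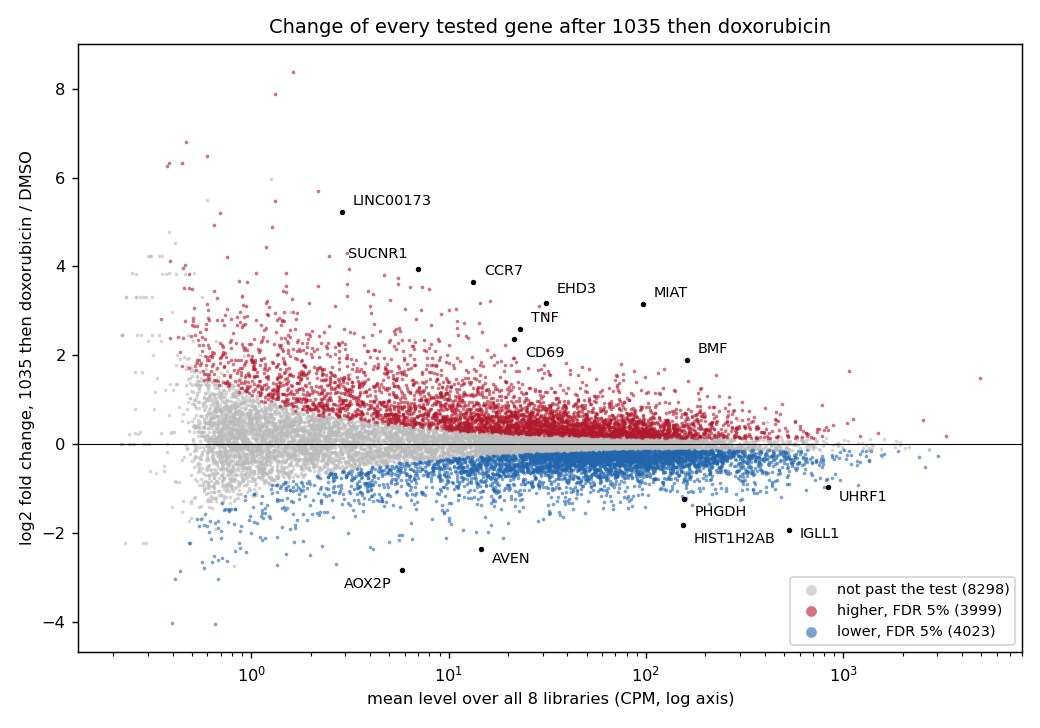
Each point is a gene, with its mean level over the 8 libraries in CPM (reads of the gene per fixed number of reads in the library, after TMM normalization) on a log axis and its log2 fold change of 1035 then doxorubicin over DMSO. Red and blue points are the 3999 genes that rose and the 4023 that fell in edgeR's test, and labelled genes include LINC00173 and CCR7 above and AOX2P and AVEN below at low to middle levels, with MIAT and IGLL1 at higher levels.

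**Figure D2:**
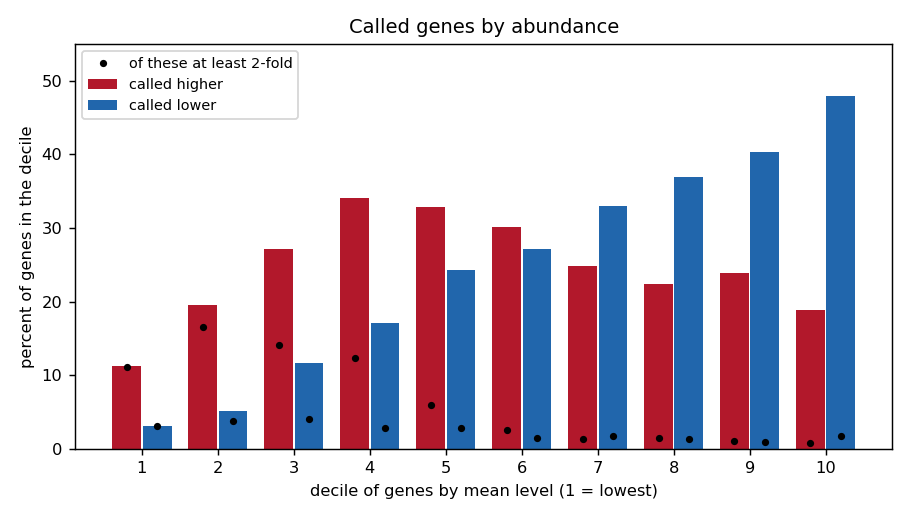
Genes are divided into deciles by mean level, from 1 (lowest) to 10 (highest), and bars give the percentage of each decile that rose (red) or fell (blue), with dots for changes of at least 2-fold. Rises outnumber falls up to the sixth decile, and in the highest decile 48.0% fell while 18.9% rose.

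The counts with 1035 alone were of like size, and those with doxorubicin alone were far smaller. Against DMSO, 3944 genes rose (24.2%) and 4049 fell (24.8%) after 1035, and 128 rose (0.784%) and 89 fell (0.545%) after doxorubicin. The doxorubicin counts depended on single libraries, being 28 and 5 without DMSO replicate 1, 36 and 29 without DMSO replicate 2, 634 and 546 without doxorubicin replicate 1, 59 and 39 without doxorubicin replicate 2 and 65 and 51 without either combination library. These comparisons share the DMSO libraries, so their counts are given side by side only. The part of the combination that differed from 1035 itself was tested directly, in combination libraries against 1035 libraries. There 57 genes were higher (0.349%) and 24 lower (0.147%), with 13 of the rises at least 2-fold (0.0797%). These counts depend on the libraries. Without combination replicate 2 they were 29 and 1, without combination replicate 1 39 and 11, without 1035 replicate 2 41 and 4, without 1035 replicate 1 57 and 49, and without either doxorubicin library 87 and 56. Against doxorubicin alone 7156 genes differed (43.8%), 3560 higher and 3596 lower. A principal component with 83% of the variance placed the DMSO and doxorubicin libraries between -29.1 and -23.6 and the 4 libraries with 1035 between 25.03 and 27.7. Since the labels leave the last 10 h of 1035 unstated, an effect of doxorubicin in this comparison cannot be told apart from one of taking 1035 away.

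The largest rises were of genes nearly silent in DMSO. LINC00173, a long non-coding RNA, stood at 0.0637 and 0.265 CPM in the DMSO libraries and 6.08 and 6.69 CPM in the combination libraries (log2 fold change 5.22 ± 0.39, SE, here and below; adjusted p = 1.7e-14). ASB2, which recruits substrates to a ubiquitin ligase, had 0.382 and 0.265 CPM against 5.70 and 7.44 CPM (4.30 ± 0.34). The DMSO and combination libraries of both genes were far apart, with no overlap. The SE is the size of the log2 fold change divided by the square root of the test's F statistic, so it is approximate. For genes with few reads in DMSO, such as these, it can be smaller than the counting error. SUCNR1 encodes the succinate receptor and went from 0.956 and 0.860 to 13.5 and 14.7 CPM (3.94 ± 0.21). CCR7, the chemokine receptor that guides lymphocytes into lymph nodes, measured 2.42 and 1.85 CPM in DMSO and 26.5 and 27.7 CPM after both drugs (3.66 ± 0.16, adjusted p = 4.0e-21). TCF7, a transcription factor of the Wnt pathway best known from T cells, measured 1.34 and 0.992 and then 12.2 and 15.0 CPM (3.53 ± 0.21). F3, the tissue factor that starts blood coagulation, had 1.402 and 1.65 CPM before and 16.2 and 18.3 CPM after (3.49 ± 0.19). In all of these genes both combination libraries exceeded both DMSO libraries. The remainder of the 12 largest rises were MYL4, EIF4E3, FXYD7, CARNS1, NES and the pseudogene FER1L4, with log2 fold changes from 3.55 to 3.95. They encode a myosin light chain, a cap-binding translation factor, a regulator of the sodium pump, carnosine synthase and the intermediate filament nestin, and reads of FER1L4 may belong to related genes.

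The largest falls were smaller in size. AOX2P, a pseudogene of aldehyde oxidase, went from 10.45 and 9.46 to 1.37 and 1.405 CPM (-2.84 ± 0.22), and reads can be shared with AOX3P, which also fell (-2.32). KNDC1, which encodes a guanine nucleotide exchange factor, stood at 6.76 and 8.47 CPM in DMSO and 1.52 and 1.405 CPM in the combination (-2.37 ± 0.24). AVEN, whose product holds back Apaf-1 and with it apoptosis, dropped from 25.7 and 26.3 to 5.70 and 4.38 CPM (-2.36 ± 0.14, adjusted p = 1.4e-17). DMD, the dystrophin gene, had 11.9 and 8.47 CPM and then 2.66 and 1.90 CPM (-2.15 ± 0.21). The groups did not overlap for any of these. USP41, LRRC26, SLC6A9 (the glycine transporter GlyT1), LRRC14B, ADAM33, HERC6 and RP11-350O14.18 completed the 12 largest falls, with log2 fold changes from -2.21 to -1.996. USP41 is a close copy of another ubiquitin protease gene, so its reads are uncertain.

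The genes whose change was most certain were abundant enough for precise estimates. MIAT, a nuclear long non-coding RNA, rose from 18.9 and 21.7 to 169 and 191 CPM (3.15 ± 0.08, adjusted p = 1.5e-29). BMF encodes a BH3-only protein that antagonises BCL2 and rose from 66.1 and 67.4 to 243 and 252 CPM (1.89 ± 0.06, adjusted p = 3.8e-25). CD82, a tetraspanin of the cell surface, measured 8.73 and 6.81 CPM in DMSO and 57.8 and 60.7 CPM after both drugs (2.92 ± 0.10). With 1035 alone MIAT stood at 163 and 164 CPM and BMF at 259 and 247 CPM, close to the combination. EHD3 (membrane recycling, 3.17 ± 0.11), LGALS1 (galectin-1, 3.21 ± 0.14), CYTH4 (3.11 ± 0.12), PIK3C2B (a lipid kinase, 1.68 ± 0.06), CYGB (cytoglobin, 1.80 ± 0.07), GBP5 (a GTPase induced by interferon, 1.64 ± 0.07) and CDC42EP3 (1.52 ± 0.07) completed the 10 rises with the smallest p. Among the 10 falls with the smallest p, 5 were histone genes, described with the cell cycle. IGLL1 encodes lambda5 of the surrogate light chain and fell from 866 and 836 to 221 and 223 CPM (-1.94 ± 0.07, adjusted p = 3.3e-22). PHGDH, the first enzyme of serine synthesis, fell from 226 and 216 to 91.4 and 95.03 CPM (-1.247 ± 0.06, adjusted p = 1.2e-19). JADE1, a subunit of a histone acetyltransferase complex, had a log2 fold change of -1.43, ADI1, an enzyme of methionine salvage, of -1.41, and HMGN2, a nucleosome-binding protein, of -1.397.

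**Figure D3:**
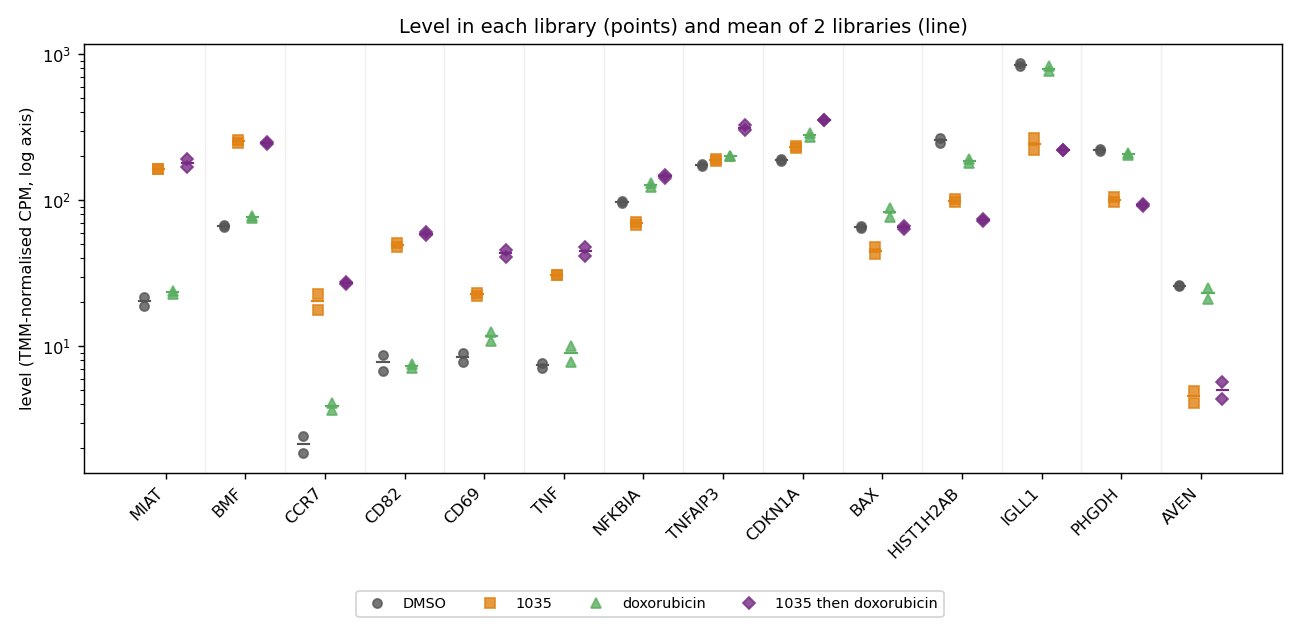
Points are the level of a gene in each library, in TMM-normalised CPM on a log axis, for DMSO, 1035, doxorubicin and 1035 then doxorubicin, and short lines are means of 2 libraries. For MIAT, BMF, IGLL1, PHGDH and AVEN the combination lies beside 1035, whereas NFKBIA, TNFAIP3, CDKN1A and BAX lie above 1035 and HIST1H2AB below it. The genes were picked after their values were seen.

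Histone genes tied to replication, active in S phase when new DNA is packaged, fell almost as a block. Of 58 genes tested, 56 fell, 1 rose and 1 did not pass the test (median log2 fold change -0.99), against 24.7% of all genes lower. Their summed level went from 23948 and 23031 CPM in the DMSO libraries to 12863 and 12216 CPM in the combination libraries. The promoter of HIST1H2AG, which encodes an H2A histone, is printed because it shows the elements known from this gene class, in the 250 bases before the start of transcription as RefSeq places it (GRCh38.p14, chr6:27132793-27133042, plus strand; H2AC11 in the current nomenclature). Capitals mark matches to CCAAT on either strand and to TATAAA on the strand of the gene, at 5 places. Of these 250 bases, 247 also lie before the start of the H2B gene HIST1H2BJ, on the other strand. The CCAAT matches therefore cannot be assigned to either gene.
HIST1H2AG: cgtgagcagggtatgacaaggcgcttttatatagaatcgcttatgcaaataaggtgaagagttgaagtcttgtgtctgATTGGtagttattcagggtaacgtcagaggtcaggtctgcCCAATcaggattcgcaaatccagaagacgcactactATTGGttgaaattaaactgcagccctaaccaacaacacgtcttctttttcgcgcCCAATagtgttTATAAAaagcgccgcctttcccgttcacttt
CCAAT, on either strand, stands in 33.0% of all 27305 promoters of this length and TATAAA, on the gene's strand, in 7.2%. A match describes letters only. Sequences were found for 25 of the 58 histone genes, too few for a share over the list.

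HIST1H2AB, an H2A gene, had 269 and 245 CPM in DMSO and 74.3 and 71.6 CPM in the combination (-1.82 ± 0.06, adjusted p = 4.1e-24). HIST1H2AG stood at 698 and 696 CPM in DMSO and 309 and 305 CPM after both drugs (-1.18 ± 0.06). HIST1H2BJ, an H2B gene, went from 308 and 301 to 124 and 117 CPM (-1.34 ± 0.06). All combination libraries lay below all DMSO libraries in these genes. HIST1H2BO and HIST1H2AD had log2 fold changes of -1.36 and -1.27. The single rise was HIST1H1A, a linker histone with few reads (3.06 and 2.38 to 6.23 and 6.94 CPM, 1.27 ± 0.21). Histone genes resemble each other and reads were 50 bases long, so values of single members are uncertain. Each single drug also lowered part of the block, 55 members with 1035 and 41 with doxorubicin, against 24.8% and 0.545% of all genes. The doxorubicin count was 3 without DMSO replicate 1, 21 without DMSO replicate 2 and 23 without doxorubicin replicate 2. Directly against 1035, 18 members were lower in the combination (median -0.23, background 0.147%), HIST1H2AB by -0.45 ± 0.07 (adjusted p = 5.9e-05), but this count moved between 1 and 31 as single libraries were left out. It was 1 without combination replicate 2, 5 without combination replicate 1, 2 without 1035 replicate 2, 30 without 1035 replicate 1 and 31 without either doxorubicin library. Among replacement histones, made outside S phase, H1F0 rose (4.02 and 3.24 to 8.74 and 8.84 CPM, 1.27 ± 0.18) and H2AFZ fell (594 and 555 to 255 and 285 CPM, -1.09 ± 0.06).

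Genes of DNA replication and of mitosis were lower as well. In the G1/S and replication list 41 of 48 genes fell and 1 rose (median -0.43). In the mitosis list 38 of 44 fell and 1 rose (median -0.41), where 24.7% of all genes fell and 24.5% rose. CCNE2, a cyclin that opens S phase, went from 138 and 139 to 66.6 and 60.6 CPM (-1.12 ± 0.07, adjusted p = 1.4e-17). UHRF1, which directs DNA methylation to new strands, stood at 1135 and 1099 CPM in DMSO and 575 and 568 CPM in the combination (-0.97 ± 0.06). MCM7, part of the replicative helicase, had 724 and 702 CPM and then 389 and 374 CPM (-0.90 ± 0.06). In each of these the groups were well separated. GINS3, another replication factor, had a log2 fold change of -1.08 and RRM2, a subunit of ribonucleotide reductase, of -0.71. HMMR, a spindle protein, fell from 189 and 184 to 110.2 and 103 CPM (-0.81 ± 0.06), PLK4, the kinase of centriole duplication, by 0.87 on the log2 scale and CCNB1, cyclin B1, by 0.71. The proliferation marker MKI67 was at 418 and 428 CPM in DMSO and 465 and 478 CPM in the combination, which did not pass the test (0.16 ± 0.22, adjusted p = 0.613). Its groups did not overlap, and its SE is large beside the median of 0.059 in the highest decile. The call of MKI67 differed in 4 of 16 alternatives, with values from 0.141 to 0.182. RFC2 of the clamp loader (121 and 119 and 133 and 139 CPM) and the securin gene PTTG1 were the members that rose, by 0.18 and 0.23. Both calls were lost without single libraries. RFC2 was at 0.20 (adjusted p = 0.0519) without DMSO replicate 1, 0.17 (0.106) without DMSO replicate 2 and 0.15 (0.108) without combination replicate 2. PTTG1 was at 0.19 (0.061) without DMSO replicate 2 and 0.17 (0.082) without combination replicate 1.

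The factor E2F controls many replication genes, and the promoter of MCM6, another helicase subunit, is shown as an example of its letters (RefSeq, GRCh38.p14, chr2:135876444-135876693, minus strand, printed along the gene). Capitals mark TTTGGCGC, at 152 and 90 bases before the start.
MCM6: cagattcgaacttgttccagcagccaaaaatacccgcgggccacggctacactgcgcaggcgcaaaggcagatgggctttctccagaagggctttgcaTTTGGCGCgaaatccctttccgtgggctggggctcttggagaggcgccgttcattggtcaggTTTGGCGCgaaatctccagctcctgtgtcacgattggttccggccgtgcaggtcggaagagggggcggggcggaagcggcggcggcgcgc
MCM6 itself went from 299 and 268 to 196 and 203 CPM (-0.51 ± 0.06, adjusted p = 2.5e-09). TTTGGCGC, on either strand, stood in 5 of the 39 promoters found for the 48 replication genes (12.8%), against 0.9% of the promoters found for tested genes and 0.6% of all. TTTCCCGC stood in 8 of 39 (20.5%), against 2.2% and 1.4%. Neither overlaps the other. TTTCCCGC also stood in 10.7% of the 28 promoters found for p53 targets and 5.3% of the 19 for NF-kB genes. It stood in 0.0% of the 25 for histone genes. These are descriptions, and binding was not measured.

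The D cyclins moved apart. CCND2 rose from 2.996 and 2.84 to 13.3 and 13.1 CPM (2.17 ± 0.18, adjusted p = 2.7e-13) and CCND1 by 1.57, whereas CCND3, which precursor B cells rely on, fell from 369 and 333 to 226 and 202 CPM (-0.71 ± 0.06). CDK4, their partner kinase, fell by 0.47 on the log2 scale. The groups did not overlap in any of the D cyclins.

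Targets of p53, the response to DNA breaks, moved in both directions against DMSO. Of 35 targets tested, 14 rose and 5 fell (median 0.09), against 24.5% and 24.7% of all genes, and 3 fell without DMSO replicate 2. CDKN1A encodes the cell cycle inhibitor p21. It stood at 193 and 186 CPM in DMSO, 228 and 237 CPM with 1035, 289 and 273 CPM with doxorubicin and 355 and 352 CPM in the combination (0.90 ± 0.06 against DMSO, adjusted p = 2.1e-16). Each group lay above the previous group in this order, with no overlap. ZMAT3, an RNA-binding protein, had 52.8 and 57.9 CPM in DMSO, 42.5 and 40.1 CPM with 1035, 104.9 and 108 CPM with doxorubicin and 92.9 and 96.0 CPM in the combination (0.77 ± 0.07). Here 1035 lay below DMSO and the combination above it, short of doxorubicin. BBC3, which encodes the killer protein PUMA, went from 10.52 and 10.4 to 19.5 and 18.8 CPM (0.87 ± 0.12), SESN1, a stress sensor of the TOR pathway, from 49.7 and 54.6 to 79.0 and 74.4 CPM (0.56 ± 0.08) and BTG2, an antiproliferative gene, from 52.6 and 50.2 to 114 and 112 CPM (1.14 ± 0.07). TNFRSF10B, a receptor of the death ligand TRAIL, had the largest rise of the list, from 7.08 and 6.48 to 22.04 and 23.8 CPM (1.75 ± 0.12).

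For several classical targets the combination did not pass the test against DMSO but was above 1035. BAX, which permeabilises mitochondria, stood at 66.9 and 64.8 CPM in DMSO, 42.7 and 47.8 CPM with 1035, 88.7 and 77.4 CPM with doxorubicin and 63.8 and 66.9 CPM in the combination. The combination overlapped DMSO (-0.01 ± 0.08, adjusted p = 0.917) and exceeded 1035 (0.53 ± 0.08, adjusted p = 4.3e-05). DDB2, a damage recognition factor of excision repair, had 60.0 and 60.7 CPM in DMSO, 34.8 and 35.7 CPM with 1035, 89.3 and 80.9 CPM with doxorubicin and 55.9 and 56.4 CPM in the combination (-0.10 ± 0.07 against DMSO, adjusted p = 0.257; 0.67 ± 0.08 against 1035). PLK3, a stress kinase (0.04 ± 0.09) and AEN, a nuclease of apoptosis (-0.17 ± 0.08, adjusted p = 0.0877) did not differ from DMSO by the test but were 0.67 and 0.77 above 1035. For AEN and DDB2 both combination libraries lay below both DMSO libraries, and AEN passed with only the 4 libraries compared. MDM2, the ubiquitin ligase of p53, passed against neither DMSO nor 1035 and measured 2079.9 and 2084 CPM in DMSO and 2019.9 and 1917 CPM in the combination (-0.08 ± 0.06, adjusted p = 0.252). TRIM22, an antiviral gene that p53 induces, fell from 245 and 246 to 169 and 179 CPM (-0.50 ± 0.06). TP53I3 and the translesion polymerase gene POLH fell by 0.89 and 0.29 on the log2 scale. Of all genes 24.2% were higher and 24.8% lower with 1035 alone, and 0.784% were higher with doxorubicin alone. Over the list, 1035 alone had 5 targets higher and 22 lower (median -0.32), against the same DMSO libraries. Doxorubicin alone had 18 higher (median 0.34). The last count was 10 without DMSO replicate 1, 11 without DMSO replicate 2 and 10 by DESeq2. Against 1035 the combination had 17 of 35 higher (median 0.41), while 0.349% of all genes were higher there, and this count lay between 12 and 24 with single libraries left out. FDXR, a ferredoxin reductase, was 0.66 above 1035 and was not past the test without combination replicate 2 (0.59, adjusted p = 0.0875).

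**Figure D4:**
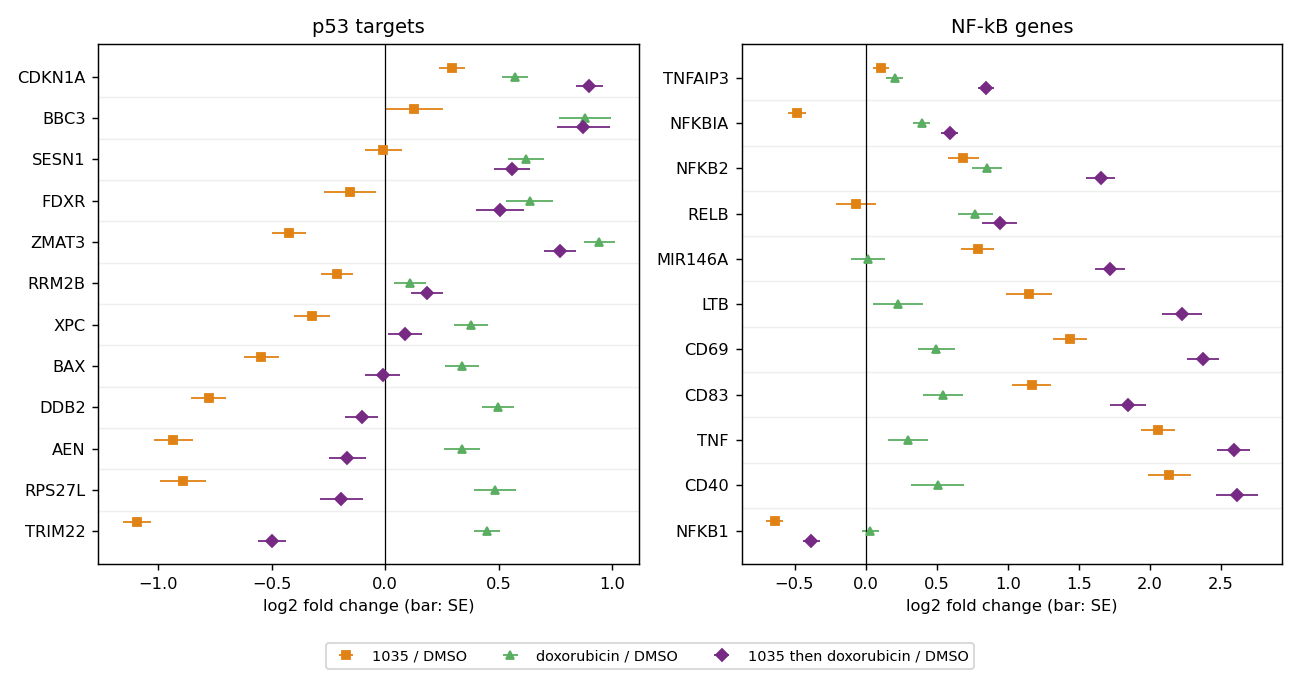
Points are log2 fold changes over DMSO and bars their SE, for p53 targets (left) and NF-kB genes (right), after 1035, doxorubicin or both. For XPC, BAX, DDB2, AEN and RPS27L in the left panel the combination lies near 0, between 1035 below it and doxorubicin above it, whereas on the right the combination lies above both single drugs for each gene drawn except NFKB1. The genes were picked after their values were seen, and the contrasts share the DMSO libraries.

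NF-kB target and feedback genes rose together and by large amounts. Of 26 tested, 22 rose and 2 fell (median 1.12), against 24.5% and 24.7% of all genes. Promoters of 3 of them, the inhibitor genes NFKBIA and TNFAIP3 and the anti-apoptotic BIRC3, are printed because each was higher in the combination than with 1035. They are the 250 bases before the RefSeq start (GRCh38.p14), along the gene: NFKBIA at chr14:35404750-35404999 (minus strand), TNFAIP3 at chr6:137867009-137867258 (plus strand) and BIRC3 at chr11:102317234-102317483 (plus strand). Capitals mark matches on either strand to GGG, any 5 bases and CC, a loose form of the kappa B site that NF-kB binds.
NFKBIA: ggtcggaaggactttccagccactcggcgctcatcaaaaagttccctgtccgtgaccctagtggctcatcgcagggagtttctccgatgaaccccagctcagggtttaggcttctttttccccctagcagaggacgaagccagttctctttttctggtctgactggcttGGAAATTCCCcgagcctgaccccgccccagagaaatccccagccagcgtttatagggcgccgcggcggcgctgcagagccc
TNFAIP3: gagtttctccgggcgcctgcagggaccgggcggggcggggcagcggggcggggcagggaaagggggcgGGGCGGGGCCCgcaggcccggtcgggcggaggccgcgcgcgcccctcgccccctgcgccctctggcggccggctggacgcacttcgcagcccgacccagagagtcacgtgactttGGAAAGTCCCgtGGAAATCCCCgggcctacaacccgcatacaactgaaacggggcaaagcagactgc
BIRC3: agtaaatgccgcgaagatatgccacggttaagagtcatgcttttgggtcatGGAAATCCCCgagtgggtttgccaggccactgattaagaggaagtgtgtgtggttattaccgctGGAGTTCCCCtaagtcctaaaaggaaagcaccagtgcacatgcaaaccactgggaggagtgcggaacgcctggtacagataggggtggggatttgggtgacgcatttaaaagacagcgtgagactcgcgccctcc
There was 1 match in NFKBIA, 81 bases before the start, 4 in TNFAIP3, of which the 2 farthest from the start overlap, and 2 in BIRC3. These letters are common: 53.7% of all promoters of this length hold a match, and 68.6% of those found for tested genes. Promoters were found for 19 of the 26 genes, too few for a share over the list, and binding was not measured.

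NFKBIA, which encodes the inhibitor that holds NF-kB in the cytoplasm, stood at 98.5 and 96.2 CPM in DMSO, 67.8 and 71.6 CPM with 1035, 131 and 124 CPM with doxorubicin and 149.9 and 143 CPM in the combination. It was lowest with 1035 and highest in the combination, and no groups overlapped (0.59 ± 0.06 against DMSO, adjusted p = 1.4e-10; 1.07 ± 0.06 against 1035, adjusted p = 2.4e-15). TNFAIP3, the deubiquitinase A20 that shuts the pathway off, had 173 and 177 CPM in DMSO, 192 and 185 CPM with 1035, 202 and 200.3 CPM with doxorubicin and 302 and 327 CPM in the combination (0.85 ± 0.06, adjusted p = 2.0e-15). Both combination libraries stood well above the 6 others. The host transcript of miR-146a, listed as MIR146A and counted as a long RNA, went from 12.4 and 16.3 to 46.6 and 47.8 CPM (1.72 ± 0.11), with 1035 alone at 25.9 and 23.5 CPM. It says nothing of the mature microRNA. Whether 1035 acted differently with doxorubicin than without it was tested as an interaction over all genes, and these were the 3 genes that passed (0.0184%). Alone, 1035 was given for 46 h, against 36 h before doxorubicin, and its presence in the last 10 h is unstated. In this term doxorubicin therefore cannot be told apart from the time or removal of 1035. The effect of 1035 on NFKBIA was -0.48 without and 0.20 with doxorubicin, on TNFAIP3 0.11 and 0.64, and on the host transcript 0.79 and 1.70. For NFKBIA the call held with each library left out. For TNFAIP3 it was lost without DMSO replicate 2 (0.51, adjusted p = 0.0786) or combination replicate 2 (0.47, adjusted p = 0.113), and for the host transcript without DMSO replicate 2 (0.70, adjusted p = 0.577), 1035 replicate 2 (0.85, adjusted p = 0.0578), combination replicate 1 (0.93, adjusted p = 0.173) or combination replicate 2 (0.895, adjusted p = 0.197). Without doxorubicin replicate 1, 64 genes passed in this direction and 175 in the other.

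Subunits of NF-kB did not move alike. NFKB2, a precursor of the alternative pathway, rose from 19.0 and 14.8 to 51.8 and 54.95 CPM (1.65 ± 0.10), and RELB, its partner, from 9.88 and 9.72 to 16.9 and 21.0 CPM (0.94 ± 0.12). REL had a log2 fold change of 0.64. NFKB1, the precursor of the classical pathway, fell from 167 and 159.9 to 127 and 124 CPM (-0.38 ± 0.06, adjusted p = 9.8e-07). BCL3, a nuclear co-activator of the family, rose by 3.18. Among secreted and surface products, TNF rose from 7.08 and 7.74 to 41.5 and 47.8 CPM (2.59 ± 0.11, adjusted p = 3.6e-21), the lymphotoxin gene LTB from 4.02 and 4.83 to 20.1 and 21.2 CPM (2.22 ± 0.14) and the costimulatory receptor CD40 from 3.76 and 3.04 to 20.7 and 21.1 CPM (2.61 ± 0.15). CD69, an activation marker, measured 7.78 and 8.995 CPM in DMSO and 45.8 and 41.0 CPM in the combination (2.37 ± 0.11), and CD83 8.10 and 5.95 CPM and 25.3 and 25.4 CPM (1.85 ± 0.13). In all of these rises the groups did not overlap. ICAM1, an adhesion molecule, and IER3 rose by 1.47 and 2.67. SOD2, the mitochondrial superoxide dismutase, fell by 0.35 on the log2 scale.

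BIRC3, which encodes the inhibitor of apoptosis cIAP2, had 0 and 2 reads in the DMSO libraries and 38 and 44 in the combination, a ratio of 50.0 with a 95% interval of 13.4 to 420 that covers counting error only. Against 1035 it was higher by 2.69 ± 0.43 (adjusted p = 1.3e-04), a call that was lost without combination replicate 2 (2.51, adjusted p = 0.0514). Directly against 1035, 11 of the 26 NF-kB genes were higher (median 0.41, background 0.349%), and 7 were higher without combination replicate 2. LTB was 1.08 above 1035, RELB 1.01, NFKB2 0.97, CD69 0.93 and the host transcript of miR-146a 0.93. TNF was 0.53 above 1035, and 0.43 (adjusted p = 0.29) without combination replicate 2. CD40 was 0.48 above 1035, and the call was lost on leaving out any of these 4 libraries, with values from 0.44 (adjusted p = 0.438, without 1035 replicate 2) to 0.52 (adjusted p = 0.114, without 1035 replicate 1). RGS16, a regulator of G protein signalling that is on neither list, was 1.46 ± 0.13 above 1035 and 1.28 ± 0.12 above DMSO. Against DMSO, 24.2% of all genes were higher and 24.8% lower with 1035 alone, and 0.784% were higher with doxorubicin alone. With 1035 alone 17 of the NF-kB genes were higher and 3 lower than DMSO, and with doxorubicin 6 were higher, or 4 without DMSO replicate 2 or either combination library, 9 without doxorubicin replicate 1 and 2 by DESeq2.

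Immediate early genes, which answer growth factor and stress signals within minutes, were higher at this late time. Of 23 tested, 19 rose and 3 fell (median 1.15), against 24.5% and 24.7% of all genes. JUN, a subunit of the factor AP-1, went from 4.78 and 3.44 to 15.6 and 16.8 CPM (1.97 ± 0.16, adjusted p = 8.5e-14), and FOS, its partner, from 4.02 and 4.63 to 14.3 and 13.0 CPM (1.66 ± 0.16). EGR2, a zinc finger factor, stood at 0.956 and 1.72 CPM in DMSO and 7.83 and 6.94 CPM in the combination (2.47 ± 0.25). Both combination libraries were above both DMSO libraries in these. SRF, the factor that drives many of them, fell by 0.43 on the log2 scale, MYC by 0.31 and the phosphatase gene DUSP1 by 0.29. The last call was lost without DMSO replicate 1 (-0.22, adjusted p = 0.139) and without combination replicate 1 (-0.24, adjusted p = 0.118). Feedback inhibitors of MAP kinases rose for 13 of 16 tested members and fell for 1, DUSP1 (median 0.41). DUSP10 rose from 6.18 and 6.55 to 20.5 and 20.9 CPM (1.70 ± 0.13), SPRY4 by 1.42 and DUSP4 by 1.09.

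Genes of the precursor B stage moved both ways, with the surrogate light chain lower. Of 21 genes of the pre-B cell receptor and its kinases, 11 fell and 7 rose (median -0.17), against 24.7% and 24.5% of all genes. IGLL1 led the falls, as given above, and its mean FPKM, which is per length of transcript, was 940.0 in DMSO and 245 in the combination. VPREB1, the other surrogate light chain gene, fell from 165 and 156 to 92.3 and 82.3 CPM (-0.88 ± 0.06). The kinase BTK fell from 257 and 262 to 148 and 147 CPM (-0.81 ± 0.06) and SYK by 0.67 on the log2 scale. Against these, CD79A, a signalling chain of the receptor, rose from 148 and 149.9 to 206 and 188 CPM (0.40 ± 0.06). Genes of recombination at the antibody loci were lower, DNTT, the terminal transferase, from 977 and 869 to 513 and 541 CPM (-0.81 ± 0.06) and the recombinase gene RAG1 by 0.33 on the log2 scale.

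Among 23 surface antigens of B-cell leukemia 10 rose and 7 fell (median -0.04), against 24.5% and 24.7% of all genes. MS4A1, which encodes CD20, went from 85.2 and 90.1 to 206 and 198 CPM (1.204 ± 0.06, adjusted p = 2.9e-19). CD22, an inhibitory receptor of B cells, rose from 141.6 and 156 to 258 and 276 CPM (0.84 ± 0.06). CD37, a tetraspanin of mature B cells, rose by 2.66 and S1PR1, the receptor for leaving tissues, by 1.41. The groups of MS4A1 and CD22 were apart by far more than their libraries differed. CD72 fell by 0.67 on the log2 scale and MME, which encodes CD10, by 0.38. Of 31 transcription factors of the lineage 13 rose and 7 fell (41.9% and 22.6%). PAX5, the master factor of B cells, was at 229 and 247 CPM in DMSO and 209.9 and 222 CPM after both drugs (adjusted p = 0.0929). Its call differed in 4 of 16 alternatives, with values from -0.189 to -0.084. EBF1 fell by 0.27 on the log2 scale. POU2F2, which encodes OCT2 of mature B cells, rose from 1.15 and 0.860 to 9.27 and 9.83 CPM (3.23 ± 0.36). BCL6 and ETV6, both repressors, rose by 0.73 and 0.63, and ERG fell by 0.71 on the log2 scale.

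The machineries of antigen presentation moved in opposite directions. For MHC class II 12 of 18 genes rose and 2 fell (median 0.40), and for MHC class I 14 of 19 fell (median -0.30). Of all genes 24.5% rose and 24.7% fell. CIITA, the master activator of class II, rose from 109 and 107 to 171 and 181 CPM (0.70 ± 0.06, adjusted p = 6.5e-12). HLA-DMA, which loads peptides, went from 40.5 and 38.6 to 95.8 and 93.6 CPM (1.26 ± 0.07) and IFI30, a lysosomal thiol reductase, from 10.7 and 10.8 to 32.7 and 35.0 CPM (1.65 ± 0.10). For class I, PSMB10 of the immunoproteasome fell from 145 and 145 to 65.7 and 66.1 CPM (-1.14 ± 0.06) and HLA-C by 0.50 on the log2 scale. HLA genes resemble each other and vary between genomes, so reads on single members are uncertain. Of 44 interferon response genes 18 rose and 8 fell (median 0.23). IFITM1, an antiviral membrane protein, rose from 35.1 and 36.8 to 82.0 and 70.6 CPM (1.09 ± 0.08), and IRF7, a factor that amplifies interferon, fell from 28.8 and 25.3 to 12.01 and 10.6 CPM (-1.26 ± 0.11). In the list for BCR, ABL1 and the output of STAT5, 11 of 22 rose and 4 fell, with 7 higher without combination replicate 2 and 2 lower without DMSO replicate 1. BCR was at 305 and 291 CPM in DMSO and 281 and 281 CPM in the combination (adjusted p = 0.219), and PIM1, a survival kinase that STAT5 induces, rose from 6.44 and 6.68 to 17.9 and 18.8 CPM (1.48 ± 0.13). Reads on BCR and ABL1 come from the normal and the fused gene alike.

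In the BCL2 family, which decides whether mitochondria release cytochrome c, 8 of 18 genes rose (median 0.10), against 24.5% of all genes. Beside BMF, the pro-apoptotic members BBC3 (0.87), BNIP3L (0.89) and BAK1 (0.53) rose, and BID fell by 0.57 on the log2 scale. BCL2L11, which encodes BIM, was at 11.8 and 13.2 CPM in DMSO and 16.3 and 16.9 CPM in the combination (0.41 ± 0.12, adjusted p = 0.00424), but not past the test without DMSO replicate 1 (0.34, adjusted p = 0.0706). The protective genes BCL2 (188 and 193 and 169.8 and 177 CPM, -0.13 ± 0.06, adjusted p = 0.0563) and MCL1 (266 and 262 and 264 and 253 CPM, -0.03 ± 0.06, adjusted p = 0.677) did not pass. For BCL2 both combination libraries lay below both DMSO libraries, and the call differed in 5 of 16 alternatives (-0.161 to -0.099). Of 30 death receptor and caspase genes 10 rose and 6 fell (33.3% and 20.0%, median 0.11), against 24.5% and 24.7% of all genes. TNFRSF1A, the TNF receptor, rose by 0.83, and the caspase inhibitor XIAP and the kinase RIPK1 fell by 0.50 and 0.57 on the log2 scale.

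Genes that repair DNA breaks were lower more often than higher. In homologous recombination and the Fanconi anemia pathway 27 of 38 fell and 2 rose (median -0.32). In the damage checkpoint 15 of 24 fell and 3 rose (median -0.30). In end joining and V(D)J recombination 10 of 21 fell and 2 rose (median -0.14). Of all genes 24.7% fell and 24.5% rose. With 1035 alone 27 of the 38 recombination and Fanconi genes also fell, against 24.8% of all genes. Between the combination and 1035, 0 of the 38 differed. Of all genes only 0.349% were higher and 0.147% lower there, so 0 is near the background. NBN, the sensor of breaks in the MRN complex, fell from 306 and 327 to 151 and 146 CPM (-1.09 ± 0.06, adjusted p = 7.4e-18). BRCA2, a factor of strand invasion, went from 203 and 212 to 122 and 116 CPM (-0.80 ± 0.06) and the checkpoint kinase gene CHEK1 from 181 and 178 to 114 and 115 CPM (-0.65 ± 0.06). The groups did not overlap. Among the members that rose was TP53BP1, whose product favours end joining, by 0.39. The targets of doxorubicin, topoisomerases II, were a little lower. TOP2B fell from 3309.7 and 3289.8 to 2869 and 2629 CPM (-0.26 ± 0.06), and TOP2A from 1773 and 1733 to 1554 and 1441 CPM (-0.23 ± 0.06, adjusted p = 0.00102), the latter not past the test without combination replicate 2 (-0.17, adjusted p = 0.0508). In the list of topoisomerases, adduct repair and drug transport 9 of 18 fell and 3 rose. SLC22A16, a carrier that takes up doxorubicin, fell from 17.8 and 18.5 to 4.03 and 5.54 CPM (-1.93 ± 0.15), and AKR1C3, a reductase of anthracyclines, rose from 4.08 and 4.30 to 9.20 and 6.86 CPM (0.94 ± 0.20).

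Biosynthesis was lower across several pathways. In serine and one-carbon metabolism 15 of 18 fell (median -0.53), against 24.7% of all genes. In purine and pyrimidine synthesis 19 of 22 fell (median -0.42), and in ribosome biogenesis 25 of 31 fell (median -0.40). MTHFD2, a mitochondrial folate enzyme, fell from 477 and 481 to 252 and 225 CPM (-1.005 ± 0.06) and MTHFD1L from 130.1 and 123 to 54.9 and 59.3 CPM (-1.15 ± 0.07). CAD, which starts pyrimidine synthesis, went from 275 and 269 to 158 and 158 CPM (-0.79 ± 0.06). All were lower in both combination libraries than in both DMSO libraries. UBTF, a factor of RNA polymerase I, fell by 0.59 on the log2 scale. Among MYC and its network 13 of 21 fell and 4 rose (median -0.31). MYC itself stood at 225 and 225 CPM in DMSO and 185 and 179 CPM in the combination (-0.31 ± 0.06), and its antagonist MXI1 rose from 8.67 and 8.66 to 21.0 and 19.7 CPM (1.23 ± 0.12). Polyamine genes moved both ways. ODC1, which makes putrescine, fell from 443 and 446 to 195 and 184 CPM (-1.23 ± 0.06), while SAT1, which acetylates polyamines for export, rose from 42.5 and 40.9 to 114 and 112 CPM (1.44 ± 0.07).

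For nuclear genes of oxidative phosphorylation 26 of 42 fell (median -0.21), with CYC1, cytochrome c1, at -0.68. Of all genes 24.7% fell and 24.5% rose. Of the 30 mitochondrially encoded genes tested 0 passed edgeR's test, 0 had an unadjusted p below 0.05 and DESeq2 called 2 higher. With only the 4 libraries compared 11 were higher and 1 lower, and without either doxorubicin library 4 were higher. Glycolysis was divided, with 11 of 26 genes higher and 11 lower. LDHA, lactate dehydrogenase, and HK2, hexokinase, fell by 0.64 and 0.69 on the log2 scale, and the glucose transporter gene SLC2A3 rose from 39.1 and 43.9 to 104 and 109.7 CPM (1.37 ± 0.08). In cholesterol and fatty acid synthesis 16 of 27 fell (median -0.28), and among chaperones 14 of 21 fell and 3 rose (median -0.33), with the mitochondrial chaperone gene HSPD1 going from 663 and 667 to 413 and 412 CPM (-0.69 ± 0.06). In the integrated stress and unfolded protein responses 13 of 26 fell and 7 rose (median -0.20), and among NRF2 targets 6 of 20 fell and 3 rose (median -0.08), where 3 fell without combination replicate 1. Ribosomal protein genes had 11 of 40 lower, but 2 without DMSO replicate 1, 6 without DMSO replicate 2, 7 without combination replicate 1 and 4 without combination replicate 2. The shares that fell, 30.0% of NRF2 targets and 27.5% of ribosomal protein genes, were near the 24.7% of all genes. Lysosome and autophagy genes rose more often than they fell, with 18 of 36 higher and 2 lower (median 0.24). MITF, a factor that controls lysosomal genes, rose from 5.80 and 6.15 to 14.7 and 15.9 CPM (1.36 ± 0.14). GABARAPL1, an autophagosome protein, rose from 0.127 and 0.595 to 4.33 and 4.30 CPM (3.56 ± 0.39).

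Of 16 histone deacetylase genes tested, a list that includes sirtuins such as SIRT1, 7 rose and 4 fell (median 0.14). The shares of all genes were 24.5% and 24.7%. The series title calls 1035 an HDAC inhibitor, and which of these enzymes it acts on was not tested. HDAC11 rose from 0.255 and 0.463 to 3.04 and 2.64 CPM (2.96 ± 0.41). HDAC1 rose from 231 and 227 to 282 and 282 CPM (0.30 ± 0.06) and HDAC3 by 0.26, whereas SIRT1 fell from 65.5 and 62.0 to 35.5 and 30.9 CPM (-0.94 ± 0.08). In each of them the groups did not overlap. HDAC2 had 195 and 185 CPM in DMSO and 175 and 167 CPM in the combination (-0.16 ± 0.06). Its fall did not pass without any of these 4 libraries, with values of -0.12 (adjusted p = 0.272) without DMSO replicate 1, -0.19 (0.0525) without DMSO replicate 2, -0.18 (0.0541) without combination replicate 1 and -0.12 (0.218) without combination replicate 2. The opposing acetyltransferases and the BET readers were lower for 13 of 21 (median -0.29). KAT6B fell from 65.5 and 59.9 to 32.0 and 33.6 CPM (-0.94 ± 0.08) and KAT5, the catalytic subunit of TIP60, by 0.88 on the log2 scale. In the complexes of class I deacetylases 9 of 34 fell and 10 rose (26.5% and 29.4%, median 0.02), near the shares of all genes. In Polycomb and DNA methylation 9 of 23 fell and 7 rose (39.1% and 30.4%, median 0.09), with CBX7 at 1.251 and BMI1 at -0.53. In the last list 5 fell without DMSO replicate 1 or combination replicate 2. Of 17 genes described elsewhere as responsive to HDAC inhibitors, 9 rose and 5 fell (median 0.49). TUBB3, a neuronal tubulin, fell from 58.6 and 57.9 to 21.1 and 24.5 CPM (-1.36 ± 0.10), and HEXIM1, an inhibitor of transcription elongation, rose by 1.09. Tubulins as a list had 1 of 11 higher and 5 lower.

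In the Wnt pathway 14 of 26 genes rose and 4 fell (median 0.22), and 9 rose without combination replicate 1. Beside TCF7, the inhibitor gene DACT3 rose by 3.45, and CTNNB1, which encodes beta-catenin, fell by 0.28 on the log2 scale. TLE2, a co-repressor, had 2 reads in DMSO and 55 and 42 in the combination, a ratio of 59.1 with a 95% counting interval of 15.9 to 495. Nuclear long non-coding RNAs had 6 of 19 higher and 5 lower (31.6% and 26.3%), near the 24.5% and 24.7% of all genes. MALAT1, a very abundant RNA of nuclear speckles, rose from 2574 and 2578 to 6730.4 and 7806 CPM (1.496 ± 0.14, adjusted p = 3.6e-04), and NEAT1, the scaffold of paraspeckles, from 497 and 580.5 to 1616 and 1763 CPM (1.65 ± 0.19, adjusted p = 0.00198). CRNDE fell from 35.2 and 33.0 to 13.9 and 15.0 CPM (-1.24 ± 0.10), and MIR17HG, the host of a cluster of growth-promoting microRNAs, by 1.03 on the log2 scale. The standard errors of MALAT1 and NEAT1 are large for their level, and the groups did not overlap.

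**Figure D5:**
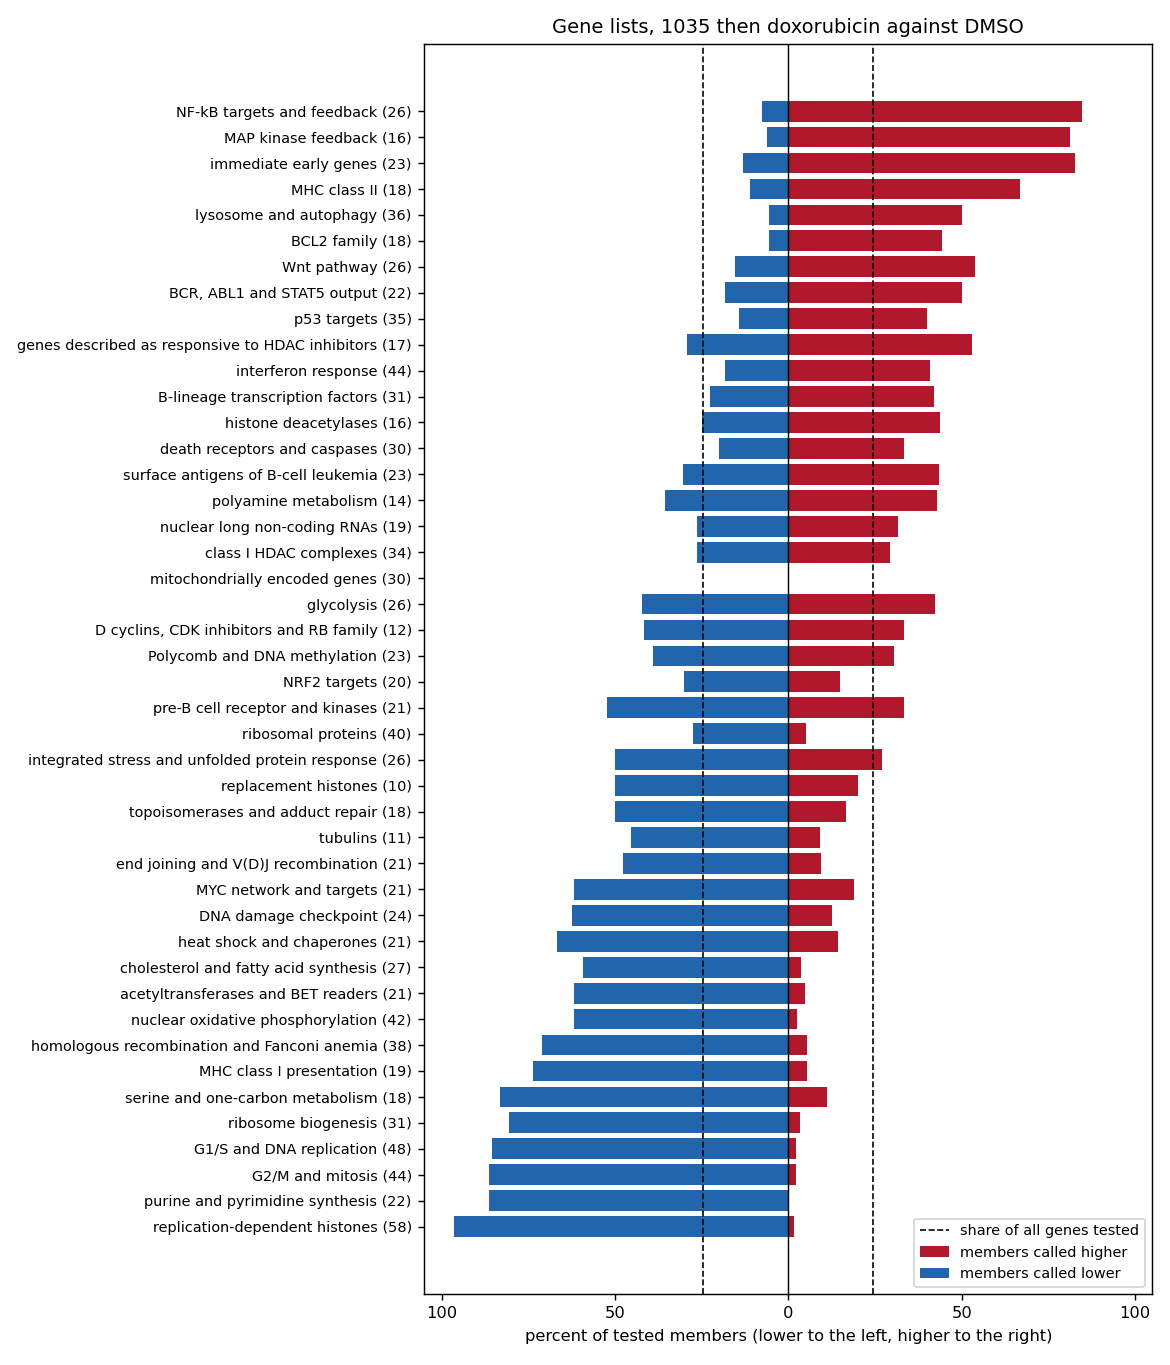
For each gene list with at least 10 tested genes (number in brackets), bars give the percentage of tested members that rose (red, to the right) or fell (blue, to the left) after 1035 then doxorubicin against DMSO, and dashed lines mark 24.5% and 24.7%, the shares of all genes. NF-kB, MAP kinase feedback and immediate early genes stand at the top, and purine synthesis and replication-dependent histones at the bottom.

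Some genes had reads in the combination but not in DMSO. In DMSO 52 tested genes had 0 reads in both libraries, of which 7 rose. Such genes pass the low-count filter only through other groups and could only rise, so these counts are descriptions. Some of the 52, such as GFAP and MUC16, also had 0 reads in both combination libraries. PRAME, a germline antigen of tumours, had 41 and 34 reads in the combination, at least 30.4-fold higher against a floor of 3 reads over the DMSO group. TLE6 had 26 and 27 reads (at least 21.6-fold higher) and LDHD, a D-lactate dehydrogenase, 14 and 11 (at least 10.1-fold higher). The others were ABCA4, PROX1, SAMD14 and RP11-379B18.5, each at least 6.84-fold higher. In the combination 13 tested genes had 0 reads in both libraries, and each had at most 1 read in a DMSO library. Genes with 0 reads in both groups are in both counts. Markers of the cell line were present throughout. All 12 markers of precursor B cells were tested, with a summed level of 6048 and 5791 CPM in DMSO and 4407 and 4209 CPM in the combination, to which IGLL1 and DNTT contribute. Of 6 markers of T and NK cells only NKG7 was tested, at 11.7 and 10.3 CPM and 11.2 and 10.00 CPM. The 5 of 6 myeloid markers tested summed to 26.8 and 26.7 CPM in DMSO and 34.0 and 35.4 CPM in the combination. Of these MPO and CSF1R were higher (0.63 and 0.75), CD33 and LYZ lower (-0.95 and -1.06), and ITGAM did not pass. The 2 of 5 stromal markers tested summed to 27.5 and 25.8 CPM and then 67.3 and 64.6 CPM. Nearly all of this was PDGFRB, at 27.4 and 25.5 CPM and then 66.2 and 61.7 CPM, while COL1A1 had few reads. Of 6 erythroid and megakaryocyte markers 0 were tested. The part of other cell types in any result was not tested.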

How the data were processed

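RNA was isolated with the Versagene kit and made into stranded TruSeq libraries after Ribo-Zero Gold depletion, and single reads of 50 bases came from an Illumina HiSeq instrument, per the labels' protocols. Per the submitters' processing notes, Novoalign 2.08.01, hg19 and DESeq2 1.4.5 were used, without stated roles. For the read counter, annotation and strand setting, nothing is given in the sources used here. Overlapping or antisense genes therefore cannot be told apart. The files deposited by the authors hold raw read counts per gene and library, and FPKM values (reads per kilobase and library size), per the file headers. The deposited fold changes and p-values were not used.

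Tables were joined by Ensembl identifier. The tables list 17849 genes, of which 16608 carried a count for each of the 8 libraries, and the 132880 counts shared between tables had 0 differences. The join of the 2 tables that hold the combination and DMSO gave 16989 genes, of which 680 lacked counts in another library. Of these, 679 had at most 9 reads in each of the 4 libraries. The abundant RNA RN7SL1 was the exception and so was left out of the test over 8 libraries. It had 30785 and 35573 reads in the combination and 46916 and 39945 in DMSO. Another 299 of the 16608 were outside that join. Symbols are those of the files, and 84 are shared by more than one gene. Counts were tested with the quasi-likelihood test of edgeR 4.0.16 (robust, TMM factors, filterByExpr; R 4.3.3, limma 3.58.1) over all 8 libraries, with 4 group means, 4 residual degrees of freedom and Benjamini-Hochberg adjustment over 16320 genes, after 288 were removed for low counts. Adjusted p-values are from this test and threshold (0.05), two-sided. Standard errors were derived from its F statistic and are approximate. CPM values are TMM-normalised. The script was tested on simulated data. Alternatives were another normalization, no or a stricter filter, DESeq2 1.42.0, a likelihood ratio test, the 4 compared libraries alone, a replicate block and each library left out.

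The members and lists were chosen with earlier results of these data known. Named genes were, by rule, the 12 largest rises and falls with a mean of at least 5 CPM in the higher group, the 10 genes of smallest p per direction (against 1035 too, and 5 against doxorubicin), the 4 of smallest p in each list with up to 4 called members against its majority, and the defining genes of lists. A few genes that this rule names are not reported here. Another 45 named genes, those without reads in DMSO, the motifs, printed promoters and figure genes, the divisions by level, the interaction and the fit without the doxorubicin group were chosen after values were seen. Promoter sequences are from RefSeq (GRCh38.p14), matched by symbol, while the files are on hg19, so no file coordinate is used. Intervals and floors cover counting error only.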

Additional observations from a re-analysis of the deposited data

Results flagged for a closer look

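For 3 genes the effect of 1035 differed according to whether doxorubicin followed, by an interaction term tested over all genes with edgeR and chosen after the data were seen. The time of 1035 differed as well (46 h alone, 36 h before doxorubicin), so doxorubicin cannot be told apart from the time or removal of 1035. NFKBIA had a log2 effect of 1035 of -0.483 without doxorubicin and 0.197 with it, a difference of 0.68 (adjusted p = 4.26e-05). For TNFAIP3 the effects were 0.109 and 0.641, a difference of 0.532 (adjusted p = 0.00112). For the host transcript of miR-146a (MIR146A) they were 0.788 and 1.7, a difference of 0.912 (adjusted p = 0.00619), and DESeq2 did not call it (adjusted p = 0.125).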

How the results depend on the processing

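Of 365 genes named by rule or choice, 343 passed in the combination against DMSO, 308 of these under all 16 alternatives and 35 not under some, and 0 reversed. The counts of 3999 and 4023 were 3218 to 4240 and 3248 to 4229 with single libraries left out, 2973 and 3281 by DESeq2, and 4411 and 4387 with the 4 compared libraries alone. At least 2-fold rises and falls lay between 991 and 1120 and between 362 and 400, but a mean normalised count of at least 50 left 494 and 238. Against 1035 the counts were 94 and 57 with only the 4 libraries compared, 90 and 61 without the doxorubicin group, and 29 to 87 and 1 to 56 with single libraries left out. For doxorubicin against DMSO they were 57 higher by DESeq2, 74 and 56 with 4 libraries, and 28 to 634 and 5 to 546 with single libraries left out. The interaction had 1 to 64 genes higher and 0 to 175 lower with single libraries left out, and 3 lower by the likelihood ratio test. The cause was not tested. Of 1600 list counts, 90 moved by over 1.5 times. Replicate numbers share only a number: same-numbered samples had correlations of their deviations between -0.082 and 0.080 over 12067 genes. With the replicate block the combination had 4015 and 4045 genes against DMSO and 61 and 31 against 1035, and the interaction had 12 lower. Depth limits rare transcripts, as given above for the lowest decile.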

Other observations

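The share of genes that passed the test differed between classes of transcript, a description chosen after the data were seen. Such shares depend on level, as the deciles show, and levels of the classes were not compared. At least 2-fold rises were 6.72% of protein-coding genes, 8.83% of long non-coding RNAs, 6.05% of pseudogenes and 0.0% of small nucleolar and Cajal body RNAs. Of 12241 protein-coding genes 27.7% rose and 29.4% fell against DMSO. Of 1823 long non-coding RNAs 332 rose (18.2%) and 200 fell, with a median log2 fold change of 0.155, and of 1190 pseudogenes 12.9% rose and 6.6% fell. Small nucleolar and Cajal body RNAs, which guide the modification of ribosomal and spliceosomal RNA, had 24 of 211 lower (11.4%) and 2 higher (0.9%), both shares below those of all genes tested (24.7% and 24.5%), with a median of -0.24. Both combination libraries lay below both DMSO libraries for 82 of the 211 and above for 26, against 36.9% and 38.3% of all 16320 genes. The share below was thus near that of all genes, and the share above was smaller. These RNAs are short and lie in introns of other genes, and whether counting used strand is not stated, so their reads and those of their hosts cannot be told apart.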
